A study of Mus musculus with 12 samples.

Results

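The serine and one-carbon metabolism enzymes were followed as 9 mRNAs, Phgdh, Psat1, Psph, Shmt1, Shmt2, Mthfd1, Mthfd1l, Mthfd2 and Aldh1l2. They were taken by gene name from the per-read table, using reads that passed the tail-calling quality tag and lay on transcripts of the class mRNA. At least 1 such read was found for each of the 9, out of 14042 genes with a read. Of these, 8 had the 30 reads over all libraries that the abundance test required, and Aldh1l2, with 22 reads, is given by its reads alone.

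P19 is a wild-type mouse embryonal carcinoma line that turns into neuron-like cells when exposed to retinoic acid. Polyadenylated RNA was sequenced directly on nanopores, so that 1 read stands for 1 RNA molecule and carries its poly(A) tail, and levels are reads per 1000000 reads of a scaled library (CPM), without scaling to length. D0 cells were undifferentiated, in DMEM with serum. D2, D4 and D6 cells were collected 2, 4 and 6 days after seeding on poly-L-lysine in TaKaRa NDiff 227 Medium with 500 nM retinoic acid, with 3 libraries at each day. Retinoic acid, medium, serum and coating all changed between D0 and the later days and cannot be told apart. The study's methods call the 3 samples of a day biological replicates, which were barcoded and multiplexed. The limma p-values rest on the spread within days over all 12 libraries, moderated by that of other genes, and not on 1 gene's replicates alone. In these bulk samples fewer cells of a type and less RNA per cell cannot be told apart either.

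Serine is made from the glycolytic intermediate 3-phosphoglycerate by an oxidation (Phgdh), a transamination (Psat1) and a dephosphorylation (Psph). Serine hydroxymethyltransferase then moves a carbon from serine to tetrahydrofolate, yielding glycine, in the cytosol (Shmt1) or in mitochondria (Shmt2). The folate-bound carbon is oxidised in mitochondria by Mthfd2 and released there as formate by Mthfd1l, or oxidised to carbon dioxide by Aldh1l2, while the trifunctional cytosolic enzyme Mthfd1 takes up formate for purine and thymidylate synthesis. The pathway is known for high activity in dividing embryonic and tumour cells.

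Nanopore reads begin at the tail, so the place where each member's mRNA ended could be read from the last aligned base. The 30 bases before the most used end, and for Shmt1 also before its outer end, are printed because they hold the letters of a poly(A) signal for the molecules counted here, and the capitals mark AATAAA, its variant ATTAAA or the rarer AGTAAA. The sequences are from GENCODE vM21 transcripts, whose coordinates were the same as those in the deposited table for all 21 member transcripts, and positions are on mm10.
Phgdh (chr3:98313170-98313199, minus strand): ctaatacctAGTAAAgaattcttaactcca
Psat1, middle end (chr19:15905130-15905159, minus strand): tggaaaacATTAAAgtcctaagtcatctaa
Psph (chr5:129765562-129765591, minus strand): acagtaaATTAAAgacttttactcttgcaa
Shmt1, inner end (chr11:60788897-60788926, minus strand): ggcaaagctATTAAAgattccagaattgtc
Shmt1, outer end (chr11:60788104-60788133, minus strand): aactcaAATAAAttaatatcttaaaaagta
Shmt2, middle end (chr10:127517317-127517346, minus strand): ctgtttttatctAATAAAatgctaacctgc
Mthfd1 (chr12:76319774-76319803, plus strand): aggtccagAATAAAtgaaataattttgcta
Mthfd1l (chr10:4156080-4156109, plus strand): gaactgaaAATAAAcatgtgttctagaaaa
Mthfd2, outer end (chr6:83305704-83305733, minus strand): ttaAATAAAgctcatctgtcgggtgtggaa
All of these windows lie in the last exon of the transcript. Among 58797 protein-coding transcripts of the annotation, 35.5% hold AATAAA in their last 30 bases, 9.74% hold ATTAAA and 2.44% hold AGTAAA. Phgdh had neither of the common signals in its window. The remaining Psat1 and Shmt2 ends described below, and the Mthfd2 end 292 bases before the annotated end, are not printed. Their windows held none of these signals, and whether they are sites of polyadenylation was not tested.

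Reads of Phgdh, Psph, Mthfd1 and Mthfd1l ended almost entirely at 1 place, with 96.7% (Psph) to 99.1% (Mthfd1) of reads within 25 bases of it. Psat1, Shmt1, Shmt2 and Mthfd2 ended at several. Psat1 reads ended 452 bases before the annotated end of its main transcript in 1558 of 2014 cases, 77.4% (95% Wilson interval 75.5 to 79.1). They reached that end in 6.70%. Other Psat1 transcripts are annotated to end at or near the middle end, ENSMUST00000162053.7 (chr19:15905127, 299 reads) and ENSMUST00000161707.1 (chr19:15905130, 189 reads). Shmt1 was split between an inner end 793 bases before the annotated end of its main transcript, with 119 of 185 reads, and that annotated end, with 59 reads. Another Shmt1 transcript, ENSMUST00000174093.7 (1 read), is annotated to end near the inner end, at chr11:60788901. Shmt2 ended mainly at a middle site, with 317 of 514 reads, which lies 178 bases before the end of its transcript ENSMUST00000026470.5. Mthfd2 ended 13 bases before the annotated end in 49.0% of 435 reads, 63 bases before it in 14.3% and 292 bases before it in 30.8%.

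**Figure D1:**
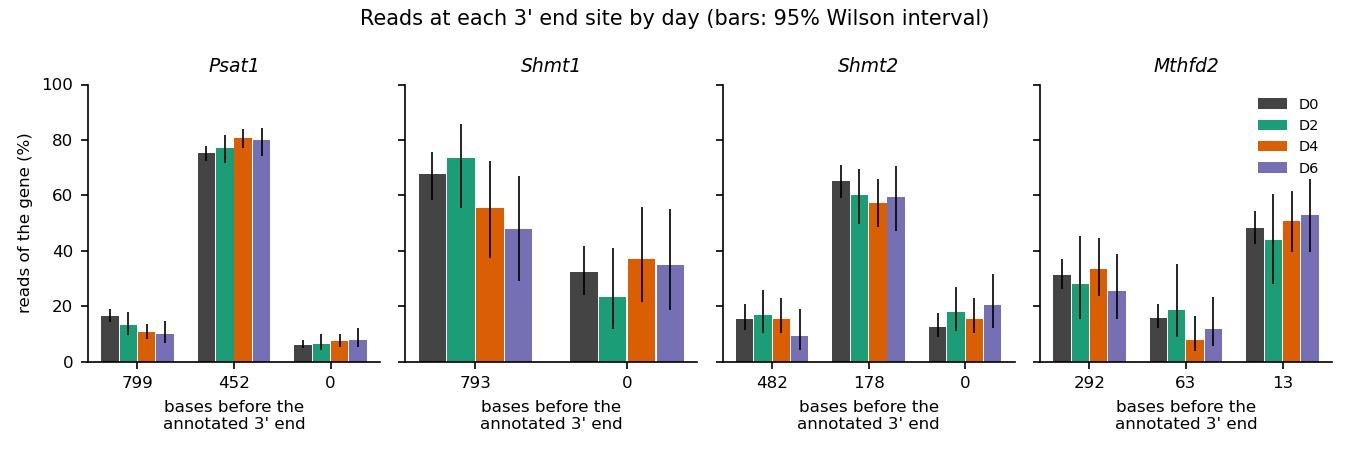
Percentage of a gene's reads that ended at each 3′ end site, by day, for the 4 members with several sites, with reads of the 3 libraries of a day pooled. Horizontal positions give the distance in bases before the annotated end of the main transcript, and black lines are 95% Wilson intervals. For Shmt2, whose 2 transcripts end at different bases, the end is that of the transcript each site was placed on. The middle Psat1 end holds 75.3% to 80.7% of reads at every day, and the intervals of the days overlap at each Shmt1 and Mthfd2 end.

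The use of these ends by day is given as a description without a test. The middle Psat1 end held 75.3% of reads at D0 and 79.8% at D6, with 77.2% and 80.7% on the days between. The Psat1 end 799 bases before the annotated end took 43 of 286, 70 of 394 and 57 of 347 reads in the D0 libraries and 5 of 62, 11 of 103 and 8 of 73 in those of D6, so that each D6 share was smaller than each D0 share. The inner Shmt1 end held 67.6% of 105 reads at D0 and 47.8% of 23 reads at D6, with intervals from 58.2 to 75.8 and from 29.2 to 67.0 that overlap. Intervals cover counting error only.

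Promoter sequences of RefSeq (GRCm38.p6), running from 250 bases before to 50 bases after the gene start, were available for 8 of the 9 members, all but Aldh1l2. They are shown because the genes were lowered together at D6, which is described next. The letters CCAAT, on either strand, were found in 6 of the 8, Phgdh, Psat1, Psph, Shmt1, Mthfd1 and Mthfd2, and in 37.4% of all 32851 promoters in the table. GGGCGG was found in 4 of the 8 and in 35.7% of all promoters, on either strand. TGATGNAA, a form of the site read by ATF4 with its partners, was found in 0 of the 8 and in 3.97% of all promoters, and CACGTG, the E-box read by MYC proteins, in 0 of the 8 and in 7.15%. These are matches of letters in this window and were not tested as binding sites. For each of the 6 genes 1 stretch with the CCAAT letters is printed, with the letters in capitals (ATTGG where they lie on the other strand).
Phgdh, 23 bases before the start (chr3:98339976-98340004, minus strand): aagcatttctgaCCAATcaaaaggagact
Psat1, 36 bases before (chr19:15925079-15925107, minus strand): tagtgagcgtggCCAATagggaggggagc
Psph, 48 bases before (chr5:129787285-129787313, minus strand): tgccgcccgctgATTGGcttaatccaacg
Shmt1, 47 bases before (chr11:60811296-60811324, minus strand): atgctcccactgATTGGgccgctgtaggg
Mthfd1, 69 bases before (chr12:76255151-76255179, plus strand): acactatctctgATTGGctaaaagcgagg
Mthfd2, 47 bases before (chr6:83317635-83317663, minus strand): ctgagatctcctATTGGctcctacgccgg

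The libraries held between 120326 (D2 replicate 1) and 613756 (D0 replicate 2) reads of mRNA class transcripts, and the D2 libraries were the smallest of the series. Of 2478 reads of Pou5f1, the pluripotency factor, 2473 were at D0, and 7 of 7 neuronal markers were higher at D6 than at D0. The 13 sequencing runs each held libraries of a single day, so run and day cannot be told apart, and the names of the D0 runs also carry the mark D2. Of the 4 runs with D6 libraries 2 name no day, so the days were taken from the column of replicate names. Median aligned length was 649 to 729 bases at D0 and 747 to 829 bases at D6, and its part in the results was not tested.

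All 8 testable members were lower at D6 than at D0, and none was called higher in any of the 5 comparisons. The size of the drop ranged from 1.64-fold for Phgdh to 5.91-fold for Mthfd1 (limma-voom over 12 libraries, Benjamini-Hochberg adjusted over 9309 genes). Calls of a lower level grew from 3 of 8 members at D2 (Psat1, Mthfd1 and Mthfd2) to 7 of 8 at D4 (all but Phgdh) and 8 of 8 at D6. With libraries thinned to the smallest these counts were 2, 3 and 7, and with mapping quality of at least 10, under which Mthfd1 could not be fitted, 1, 4 and 6. Of all genes tested, the share called lower was 6.11% for D2, 12.5% for D4 and 18.8% for D6. The median log2 fold change of the members was -0.62, -1.50 and -1.93 at the 3 days, whereas that of all genes was -0.04, 0.01 and 0.00. In either direction 10.8%, 25.4% and 37.8% of all genes were called. Every library lay below every D0 library for 5 of 8 members on D2, 7 on D4 and 8 on D6, against 18.2%, 19.6% and 24.0% of all genes tested. Summed over the 9 members the level was 1837 ± 46.4 CPM at D0 (SD, n = 3), then 1191 ± 22.5, 1042 ± 40.3 and, at D6, 621 ± 67.4 CPM, given without a test.

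**Figure D2:**
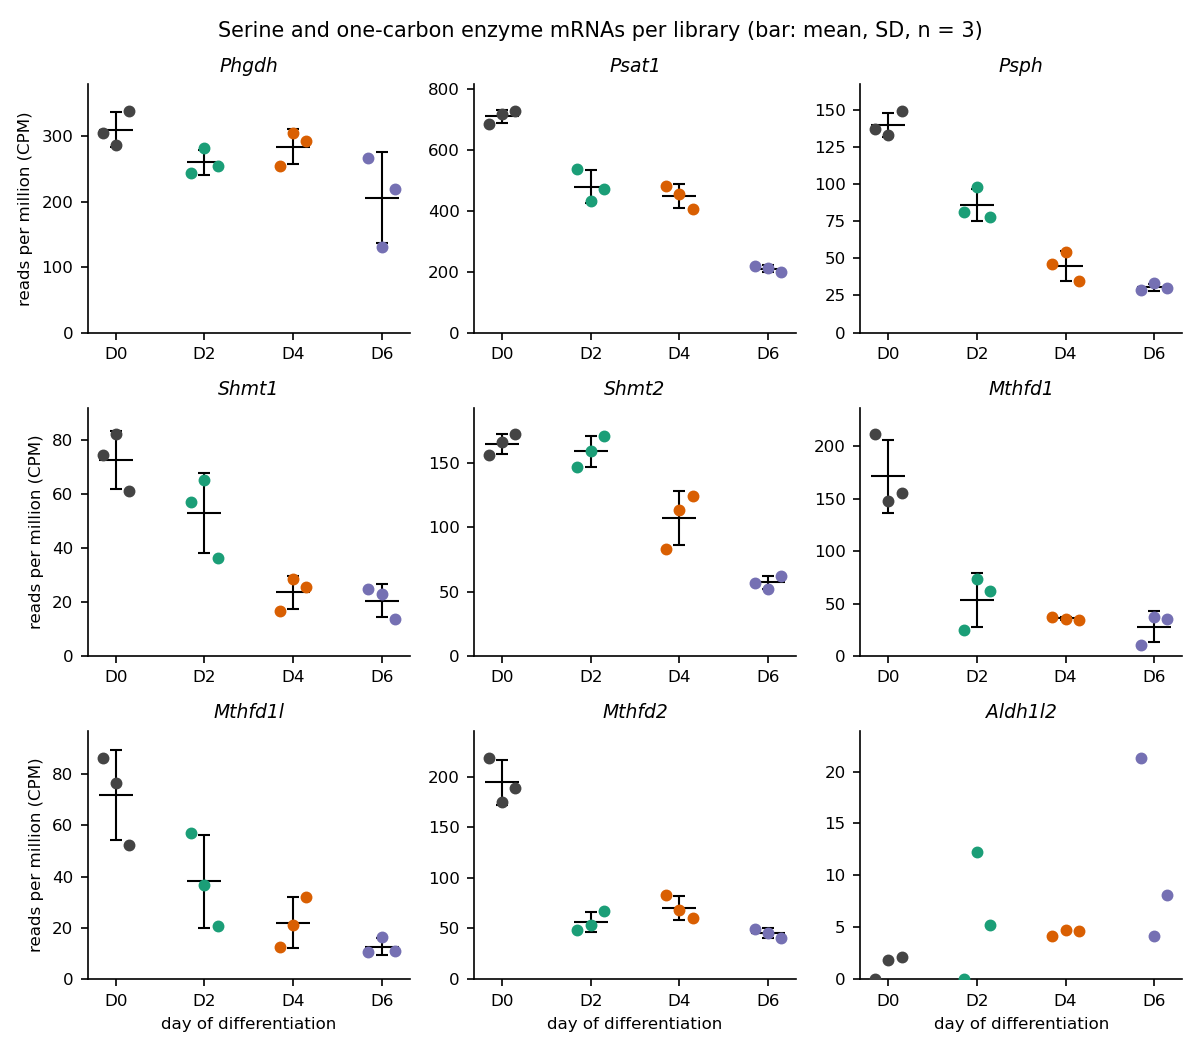
Level of each of the 9 mRNAs in CPM (vertical axis, from 0) by day of differentiation, with 1 point per library and a black bar for the mean and SD of 3 libraries (none is drawn for Aldh1l2, which had 22 reads in all). For the 8 tested mRNAs every D6 point lies below every D0 point, for example 198 to 221 CPM against 688 to 728 CPM for Psat1.

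The 3 enzymes of serine synthesis are taken in turn, with the values of every library. Psat1, the aminotransferase, had 688, 718 and 728 CPM in the D0 libraries. It had 537, 432 and 472 CPM at D2, then 483, 457 and 408 at D4, and 221, 214 and 198 at D6. Each later day lay wholly below D0, and D6 wholly below D4. The log2 fold change was -0.59 ± 0.13 (SE) at D2 (adjusted p = 0.000439), -0.68 ± 0.11 at D4 (adjusted p = 2.42e-06) and -1.75 ± 0.13 at D6 (adjusted p = 4.43e-18). The D2 libraries contributed 263 Psat1 reads, against 1027 at D0, and without D2 replicate 2 the D2 difference was -0.45 (adjusted p = 0.0669). Of all Psat1 reads 50.3% had a mapping quality under 10, and with the others alone the difference was -0.48 at D2 (adjusted p = 0.161) and -0.22 at D4 (adjusted p = 0.354). With all libraries thinned to the reads of the smallest, it was -0.21 at D2 (adjusted p = 0.549) and -0.35 at D4 (adjusted p = 0.18). The D6 call held under every alternative tried. Of the Psat1 reads 299 lay on its transcript ENSMUST00000162053.7 and 189 on ENSMUST00000161707.1, each with a median mapping quality of 0. Among the 21-base words of its main transcript, 8.66% also occurred in other genes, most in Gm12611.

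Psph, the phosphatase of the last step, had 137, 133 and 149 CPM at D0 and 81.4, 97.8 and 77.8 CPM at D2. It had 45.8, 54.4 and 34.6 CPM at D4 and 28.5, 33.2 and 29.8 CPM at D6. The ranges of the 4 days did not overlap, and every day lay below the one before. Against D0 the log2 fold change was -0.65 ± 0.23 at D2 (adjusted p = 0.0611), -1.64 ± 0.23 at D4 (adjusted p = 8.49e-08) and -2.13 ± 0.26 at D6 (adjusted p = 9.12e-10). Psph was the only member called between D2 and D4 (log2 fold change -0.98 ± 0.29, adjusted p = 0.0409), where 1.08% of all genes were called lower and 3.12% in either direction. For 3 members, Psph, Shmt1 and Shmt2, the D4 libraries lay wholly below those of D2, as for 7.18% of all genes. That call rested on 49 reads at each day and was lost without D2 replicate 1 or 2 or without D4 replicate 1 or 3, with values from -1.05 to -0.81 and adjusted p from 0.0522 to 0.189. With libraries thinned to the smallest the Psph difference was -0.51 between D2 and D4 (adjusted p = 0.601) and -0.999 between D0 and D4 (adjusted p = 0.0521).

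Phgdh, the dehydrogenase that opens the pathway, had the smallest fold at D6. Its levels were 305, 286 and 338 CPM at D0, 244, 281 and 254 at D2 and 254, 305 and 293 at D4. At D6 they were 267, 131 and 220 CPM. D4 overlapped D0 (log2 fold change -0.10, 95% interval -0.40 to 0.19, adjusted p = 0.657), and D2 did not pass either (-0.22 ± 0.18, adjusted p = 0.482). The D6 libraries all lay below the D0 libraries, at a log2 fold change of -0.71 ± 0.16 (adjusted p = 0.000206), but D6 replicate 2 was far below its companions. Without D6 replicate 2 the D6 difference was -0.33 (adjusted p = 0.113), so the call depends on that library. It was also lost with libraries thinned to the smallest, at -0.31 (adjusted p = 0.358), which left 7 of 8 members lower at D6. Of the 21-base words of the Phgdh transcript 78.8% also occur in other genes, mostly in Gm7901, while 0.177% of Phgdh reads had a mapping quality under 10. Against D4, Phgdh was lower at D6 by 0.61 ± 0.16 on the log2 scale (adjusted p = 0.0102), and the difference was -0.23 without D6 replicate 2 (adjusted p = 0.521). It was also lost without D4 replicate 2 (-0.52, adjusted p = 0.114), without D4 replicate 3 (-0.57, adjusted p = 0.054) and with scaling by library totals (-0.47, adjusted p = 0.057), and under 3 further settings. As a share of the reads of the 3 synthesis enzymes, Phgdh took 25.2% to 27.8% in the D0 libraries and 34.6% to 51.7% in the D6 libraries, without overlap and without a test.

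**Figure D3:**
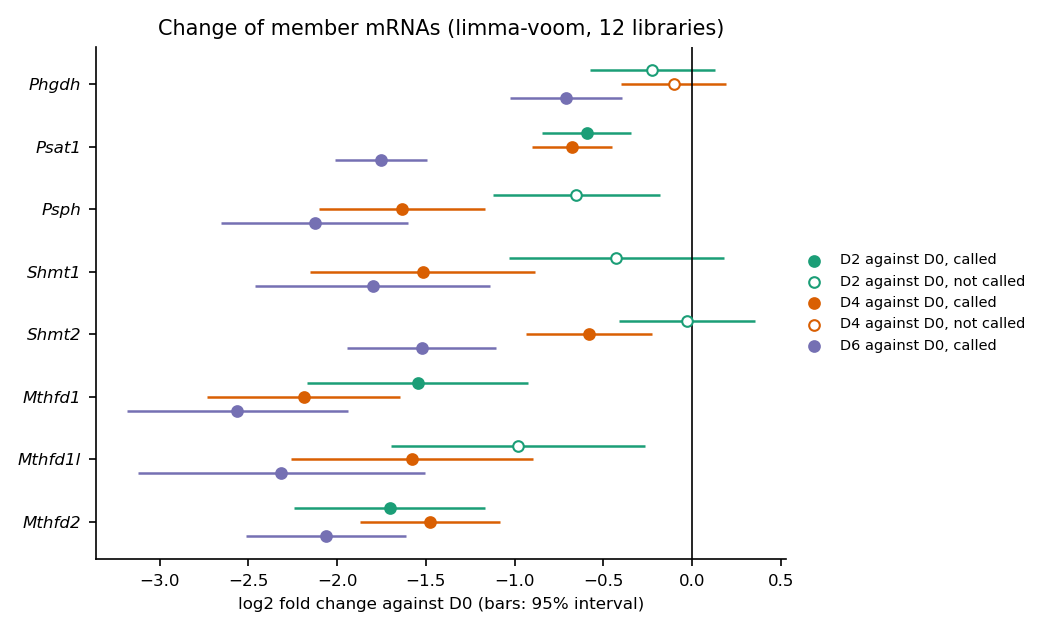
Log2 fold change of the 8 tested mRNAs against D0 (horizontal axis) at D2, D4 and D6, with bars for the 95% interval, filled points for adjusted p of at most 0.05 and open points otherwise. At D6 all 8 points are filled and lie between -2.56 (Mthfd1) and -0.71 (Phgdh), and at D2 the filled points are Psat1, Mthfd1 and Mthfd2.

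Mthfd2 and Mthfd1 had most of their drop by D2. Mthfd2, the mitochondrial dehydrogenase and cyclohydrolase, had 219, 175 and 189 CPM at D0 and 48.8, 53.0 and 67.4 CPM at D2. It stood at 83.4, 68.6 and 59.9 CPM at D4 and 49.8, 45.6 and 40.7 CPM at D6. No later library came near the D0 range, and D2 and D4 overlapped. The log2 fold change was -1.70 ± 0.27 at D2 (adjusted p = 2.3e-06), -1.48 ± 0.20 at D4 (adjusted p = 1.43e-08) and -2.06 ± 0.22 at D6 (adjusted p = 1.73e-11). Between D4 and D6 the difference was -0.59 (adjusted p = 0.168).

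Mthfd1 had 212, 148 and 155 CPM at D0, 24.4, 73.4 and 62.2 at D2, 37.5, 35.5 and 34.6 at D4 and 10.7, 37.3 and 35.2 at D6. All 9 later libraries lay below the 3 of D0, while the later days overlapped one another at D2 and D4 and at D4 and D6. Its log2 fold changes against D0 were -1.55 ± 0.31 (adjusted p = 0.000209), -2.19 ± 0.27 (adjusted p = 2.04e-09) and -2.56 ± 0.31 (adjusted p = 4.62e-10). Of the Mthfd1 reads 98.0% had a mapping quality under 10, and they were divided over 2 Mthfd1 transcripts with 317 and 32 reads. None (0%) of the 21-base words of its main transcript occurred in another gene.

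Mthfd1l, the mitochondrial formate-releasing synthetase, was measured on few reads, 103 at D0 and 20, 26 and 15 on the later days. It had 86.5, 76.6 and 52.5 CPM at D0, with D2 reaching up into that range at 57.0, 36.7 and 20.7 CPM. At D4 it had 12.5, 21.3 and 32.2 CPM and at D6 10.7, 16.6 and 10.8 CPM, both wholly below D0. It was called lower at D4 (log2 fold change -1.58 ± 0.34, adjusted p = 0.000236) and at D6 (-2.31 ± 0.40, adjusted p = 3.64e-06). At D2 the difference was -0.98 ± 0.36 (adjusted p = 0.0655). The D4 call was lost with libraries thinned to the smallest (-1.20, adjusted p = 0.174).

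The 2 serine hydroxymethyltransferases were lower from D4. Shmt2, the mitochondrial enzyme, had 156, 166 and 172 CPM at D0 and 147, 159 and 171 CPM at D2, which overlapped. At D4 it had 83.4, 114 and 124 CPM and at D6 57.0, 51.9 and 62.3 CPM. At D2 the log2 fold change was -0.03 (95% interval -0.41 to 0.35, adjusted p = 0.956). It was -0.58 ± 0.18 at D4 (adjusted p = 0.0102) and -1.52 ± 0.21 at D6 (adjusted p = 1.77e-08), and D6 was lower than D4 by 0.94 ± 0.23 (adjusted p = 0.00365). Among Shmt2 reads 81.1% had a mapping quality under 10, and its 2 transcripts took 249 and 265 reads. With reads of mapping quality of at least 10 alone, the D4 difference was 0.50 (adjusted p = 0.38) and the D6 difference -0.94 (adjusted p = 0.158), so the Shmt2 calls rest on reads of low mapping quality. The D4 call was also lost without D4 replicate 1 (-0.47, adjusted p = 0.0701) and with libraries thinned to the smallest (-0.56, adjusted p = 0.237), and the difference between D4 and D6 without D6 replicate 2 (-0.82, adjusted p = 0.0633). Of the 21-base words of its main transcript, 10.1% also occurred in other genes, most in the pseudogene Gm15544.

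Shmt1, the cytosolic enzyme, had 74.5, 82.0 and 60.9 CPM at D0 and 57.0, 65.2 and 36.3 CPM at D2. At D4 it had 16.7, 28.4 and 25.3 CPM and at D6 24.9, 22.8 and 13.6 CPM, with D4 and D6 wholly below D0 and overlapping each other. The log2 fold change was -0.43 at D2 (adjusted p = 0.424), -1.52 ± 0.32 at D4 (adjusted p = 0.000147) and -1.80 ± 0.33 at D6 (adjusted p = 1.04e-05). From D4 to D6 it was -0.28 (95% interval -1.10 to 0.53, adjusted p = 0.754).

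Of all members, 3 were lower at D6 than at D4, Phgdh, Psat1 and Shmt2, where 4.39% of all genes were called lower and 8.43% in either direction. For 4 members, Psat1, Psph, Shmt2 and Mthfd2, the libraries did not overlap between these days, as for 12.3% of all genes. Psat1 had the largest such difference of the 3, -1.08 ± 0.14 (adjusted p = 2.5e-08), and was called under 24 of the 24 alternative settings tried.

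Aldh1l2, the mitochondrial enzyme that oxidises the folate-bound carbon, was close to the limit of detection. The D0 libraries had 0, 1 and 1 reads, the D2 libraries 0, 3 and 1, the D4 libraries 1, 2 and 2 and the D6 libraries 6, 2 and 3. No fold is given, because D0 lies under 3 reads in every library. When every gene with at least 1 read was fitted, it was called higher at D6 than at D0 (adjusted p = 0.00774), which rested on 11 reads against 2, 6 of them in D6 replicate 1.

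The balance between compartments was described from shares of reads. Mthfd2l, a further mitochondrial enzyme described below, is not a member and is not counted in them. It had 56 reads at D0 and 209 at D6, beside 620 and 141 mitochondrial reads that were counted. Shmt2, Mthfd2, Mthfd1l and Aldh1l2 together made up 61.7% to 65.8% of one-carbon reads (these with Shmt1 and Mthfd1) in the D0 libraries, 65.3% to 75.6% at D2, 76.5% to 78.7% at D4 and 66.3% to 79.6% at D6. Shmt2 made up 66.9% to 73.9% of Shmt1 and Shmt2 reads at D0 and 80.0% to 83.3% at D4, and 69.4% to 82.1% at D6. These D4 values lay above D0, whereas D6 overlapped D0 for Shmt2 and not for the mitochondrial share. With mapping quality of at least 10 the mitochondrial share averaged 83.5%, 77.0%, 83.3% and 80.6% from D0 to D6, so the higher share at D4 and D6 was not there. The Shmt2 share of Shmt1 and Shmt2 reads then averaged 27.7%, 45.6%, 58.9% and 38.9% from D0 to D6, so that Shmt1 took most of these reads on every day but D4. The filter removes nearly all Mthfd1 reads and most Shmt2 reads.

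Several neighbours of the pathway, from lists of genes, were lower at D6 as well. For single genes of these lists, values under the alternative settings are not given. De novo purine synthesis, which uses the formyl group that Mthfd1 supplies, had 6 of 6 genes called lower at D6, 4 at D4 and 1 at D2, and the median of their log2 fold changes was -1.24 for D6. The largest were Pfas (-1.58 ± 0.38, adjusted p = 0.000617), Ppat (-1.42 ± 0.28, adjusted p = 3.53e-05) and Gart (-1.36 ± 0.21, adjusted p = 1.64e-07). Of 5 tested serine and folate transporters, 3 were lower at D6. These were Slc1a5 (-2.57 ± 0.53, adjusted p = 6.6e-05) and Slc1a4 (-2.48 ± 0.26, adjusted p = 7.16e-12), carriers of neutral amino acids at the cell surface, and Sfxn1 (-1.36 ± 0.22, adjusted p = 8.05e-07), which brings serine into mitochondria. The same 3 were called lower at D2 and at D4. Slc1a5 had 59 reads at D0 and 7 at D6.

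The amino acid response led by ATF4, a transcription factor known to drive the genes of serine synthesis, had 7 of 8 tested genes lower at D6 and 6 of 8 at D2. Atf4 itself was lower by 1.44 on the log2 scale at D2 (adjusted p = 4.78e-09) and by 1.32 at D6 (adjusted p = 1.73e-11). Its targets Chac1 (log2 fold change -5.11 ± 0.57, adjusted p = 3.52e-11), Trib3 (-4.86 ± 0.66, adjusted p = 9.81e-09) and Asns (-2.49 ± 0.19, adjusted p = 1.75e-17) had the largest differences at D6. Ddit3, the 1 gene that did not pass, had a log2 fold change of 0.48 (adjusted p = 0.224). Chac1 had 195 reads at D0 and 3 at D6, and Trib3 had 143 and 4. In the MYC family Mycn was lower at D6 (-0.71 ± 0.24, adjusted p = 0.0129), the only 1 of 2 tested to be called.

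**Figure D4:**
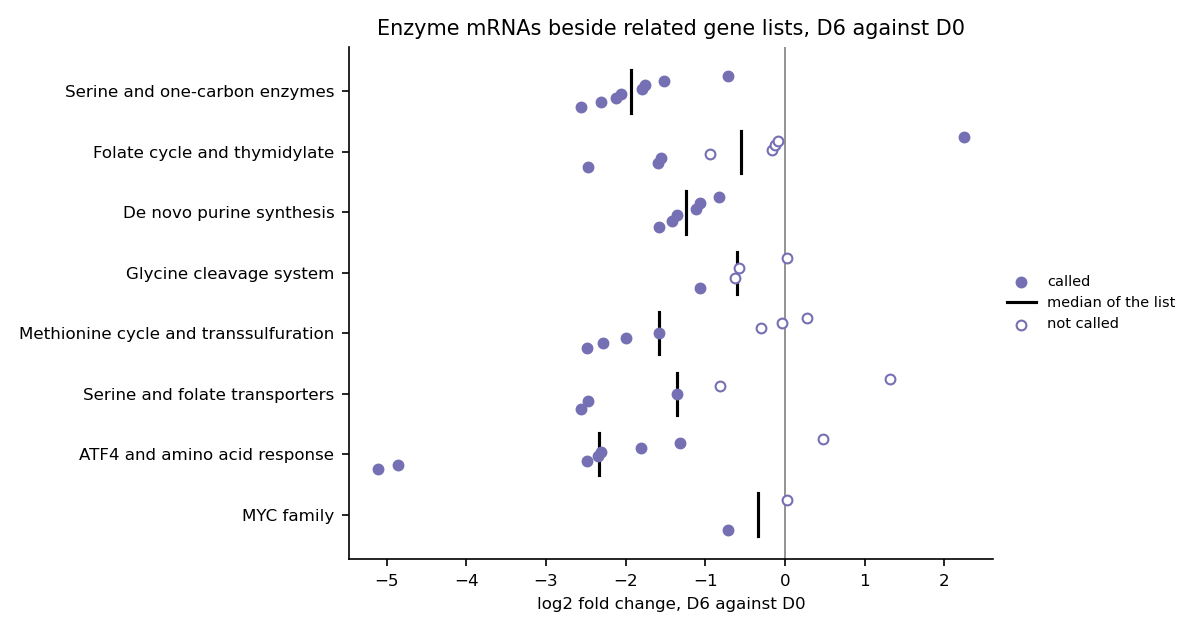
Log2 fold change at D6 against D0 (horizontal axis) for the enzymes and 7 related lists, with 1 point per tested gene, filled where the adjusted p was at most 0.05 and open otherwise, and a black line for the median of each list. All points of the enzyme and purine lists lie below 0, the ATF4 list reaches -5.11 (Chac1), and Mthfd2l stands alone at 2.25.

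The folate cycle proper behaved less evenly. Mthfs (-2.47 ± 0.68, adjusted p = 0.00253) and Fpgs (-1.56 ± 0.56, adjusted p = 0.0238) were lower at D6. Few reads lay behind them, 31 and 28 at D0 and 7 each at D6. Mthfd2l, a second mitochondrial dehydrogenase and cyclohydrolase, was higher at every day, by 0.98 at D2 (adjusted p = 0.0224), 1.56 at D4 (adjusted p = 5.5e-07) and 2.25 ± 0.23 at D6 (adjusted p = 1.69e-12). It had 56 reads at D0 and 209 at D6, while its relative Mthfd2 went from 277 to 51. Of the 21-base words of Mthfd2, 0.387% occurred in other genes, most of those in Smad1. Tyms, thymidylate synthase, did not pass at D6 (-0.12 ± 0.21, adjusted p = 0.683).

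In the methionine cycle and transsulfuration 4 of 7 tested genes were lower at D6. The largest were Cbs (-2.49 ± 0.58, adjusted p = 0.000422) and Cth (-2.29 ± 0.45, adjusted p = 3.23e-05), which turn homocysteine and serine into cysteine, and Ahcy (-1.99 ± 0.32, adjusted p = 4.8e-07), which yields homocysteine. Cbs had 45 reads at D0 and 6 at D6, and Cth had 90 and 13. Of the glycine cleavage system 1 of 4 genes was lower at D6, Gcsh (-1.07 ± 0.18, adjusted p = 1.25e-06), and Gldc did not pass (-0.62 ± 0.26, adjusted p = 0.0528).

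Markers of dividing cells are given beside the enzymes, with no test of the difference between them. Of 8 such markers, 3 were higher at D2 and 0 lower, 2 were lower at D4 and 6 were lower at D6, and their median log2 fold change was 0.37, -0.03 and -0.50 on the 3 days. The libraries held 2183 to 2293 CPM of them in sum at D0, 2833 to 2980 at D2, 2200 to 2387 at D4 and, lowest, 1516 to 1653 at D6. Pluripotency markers were lower in 4 of 4 cases at each later day, with a summed level of 1995 to 2231 CPM at D0 and 130 to 218 CPM at the later days. Neural progenitor markers had 5 of 5 higher at D6 and a summed level of 422 to 469 CPM at D0 and 2268 to 2626 at D6. Among glial markers Aqp4 and S100b had 0 reads, Slc1a3 was lower at D6 (log2 fold change -1.61 ± 0.34, adjusted p = 0.00011), and Mbp was not called (0.42 ± 0.36, adjusted p = 0.379). Their summed level was 67.2 to 106 CPM at D0 and 46.1 to 57.0 at D6. Of mesoderm and endoderm markers 1 of 6 reached 30 reads, Acta2, which was lower at D6. The part of cell composition in the fall of the enzymes was not tested.

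By pattern over the 12 libraries, the genes most like Mthfd2 among 2795 genes with 20 reads or more on average included Gdi2, Fam162a, Tpi1 and Eno1, with Pearson correlations of log2 CPM from 0.957 (Eno1) to 0.974 (Gdi2). Those most like Phgdh were Uqcr10, Lyar, Lta4h, Eif2s1 and Snrpa, from 0.843 (Snrpa) to 0.943 (Uqcr10). The libraries share the 4 day means, so these values describe likeness over the series and carry no p.

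Tail length was read from the same molecules. The 8 members were among the 4841 genes with 10 or more reads on average and 1 in each library, and the difference in median tail was tested with limma weighted by reads. Reads behind the tails ranged from 15 (Mthfd1l, D6) to 1027 (Psat1, D0) per day. At D2 1 of 8 members had a shorter median tail (Psat1), at D4 2 of 8 (Psat1 and Psph) and at D6 1 of 8 (Phgdh), and none had a longer one. Of all genes, 1.69% were called shorter at D2, 2.56% at D4 and 2.50% at D6, and 0.124%, 0.207% and 2.27% longer.

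The median Psat1 tail was 112, 115 and 114 nt in the D0 libraries. It was 89.9, 93.4 and 95.3 nt at D2, 99.3, 84.4 and 92.4 nt at D4 and 97.6, 100.0 and 97.1 nt at D6. Every later library was shorter than every D0 library. The fitted difference was -20.6 ± 5.05 nt at D2 (adjusted p = 0.0148), -22.9 ± 4.02 nt at D4 (adjusted p = 9.1e-05) and -15.2 ± 5.26 nt at D6 (adjusted p = 0.0958). With 3 libraries on each side the exact two-sided permutation test gave 0.1 at each day, the smallest p it can give. At the middle end, which holds most Psat1 reads, the median over pooled reads was 113 nt at D0 and 92.5, 86.7 and 92.9 nt later. At the end 799 bases before the annotated end it was 121 nt at D0 and 108, 110 and 114 nt later. At the annotated end it was 120 nt at D0 and 76.9, 91.4 and 113 nt later. The part of end use in the tail difference was not tested. The D2 call was lost without any 1 of the D2 libraries, with adjusted p from 0.0846 to 0.176.

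Psph had the longest tails of the synthesis enzymes at D0, with medians of 136, 143 and 142 nt. They were 92.8, 97.2 and 106 nt at D2, 101, 92.6 and 56.4 nt at D4 and 138, 113 and 97.6 nt at D6. D2 and D4 lay wholly below D0 and D6 reached back into it. The difference was -41.9 ± 11.8 nt at D2 (adjusted p = 0.0584), -57.4 ± 11.8 nt at D4 (adjusted p = 0.00114) and -27.1 ± 13.6 nt at D6 (adjusted p = 0.325). The D4 value rested on 49 reads and was -45.4 nt without D4 replicate 3 (adjusted p = 0.0645).

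Phgdh tails had medians of 104, 103 and 107 nt at D0 and overlapped that range at D2 (83.6, 92.2 and 118 nt) and D4 (109, 95.8 and 91.3 nt). At D6 they were 88.2, 81.5 and 79.5 nt, below all D0 values, and the difference was -21.8 ± 6.39 nt (adjusted p = 0.037). The call was lost when any of the D0 or D6 libraries was left out, with adjusted p from 0.0507 to 0.168, and with the replicate number as a block (-22.0 nt, adjusted p = 0.0616). The median difference over all genes was 4.81 nt at D6, in the other direction.

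**Figure D5:**
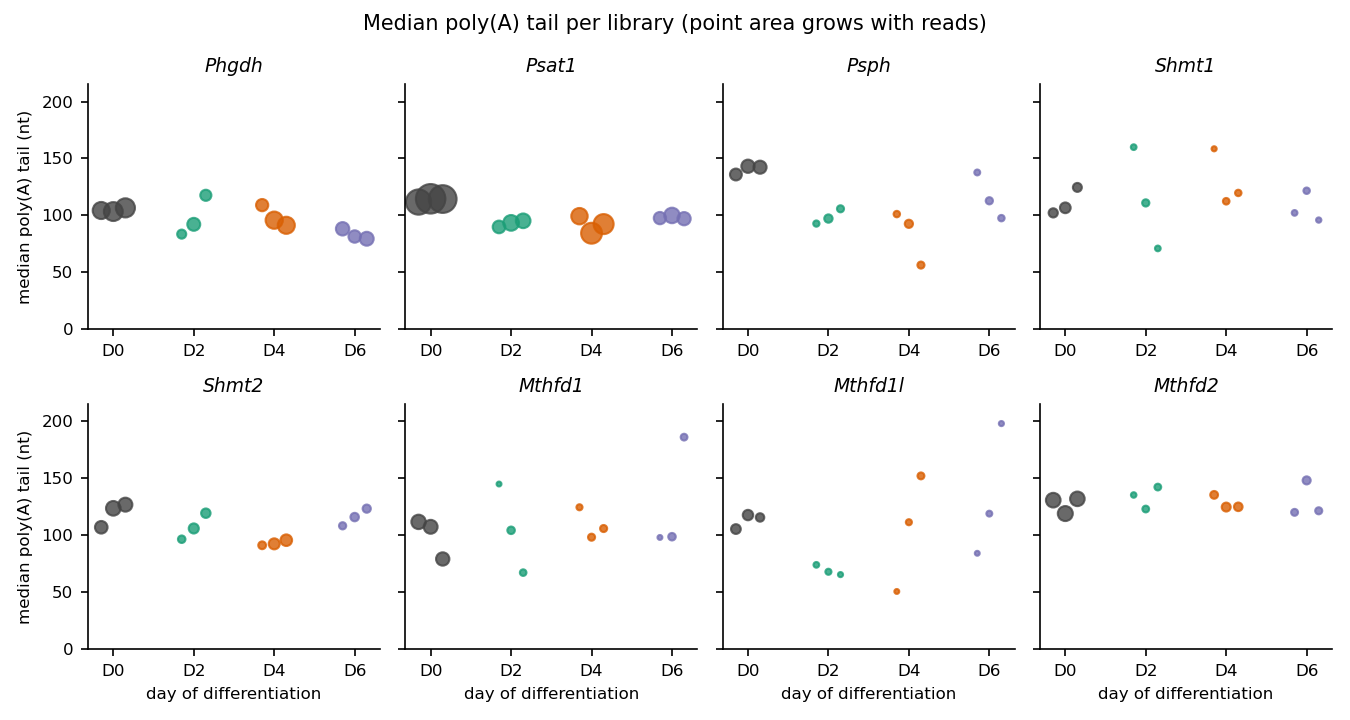
Median poly(A) tail length in nt (vertical axis, from 0) by day, with 1 point per library and a point area that grows with the number of reads. Psat1 points drop from 112 to 115 nt at D0 to at most 100.0 nt later, Mthfd2 points stay between 119 and 148 nt, and the small points of Shmt1, Mthfd1 and Mthfd1l spread widely.

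The other members gave no call on the median. Shmt2 had medians of 107, 124 and 127 nt at D0 and 91.2, 92.4 and 95.6 nt at D4, which did not overlap (difference -26.6 ± 8.24 nt, adjusted p = 0.0838). At D6 its median was 108, 116 and 123 nt. Mthfd2 had 131, 119 and 132 nt at D0 and 120, 148 and 121 nt at D6, a difference of 5.51 nt (95% interval -17.2 to 28.2, adjusted p = 0.88), although its level had fallen 4.17-fold. For Mthfd1 the median tail differed at D6 by 31.7 nt (95% interval -2.12 to 65.6) and for Mthfd1l 20.2 nt (95% interval -24.4 to 64.8), and neither passed the test. Mthfd1l had 74.0, 67.9 and 65.4 nt at D2 against 105, 118 and 116 nt at D0, on 20 reads (-43.4 ± 19.5 nt, adjusted p = 0.575). Within Mthfd2, reads ending 292 bases before the annotated end had a median tail of 110 nt at D0 and those ending 13 bases before it 144 nt, over pooled reads.

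The share of tails of 30 to 90 nt rose for Psat1, Psph and Shmt2. At D2 it was called higher for 1 of 8 members (Psat1), at D4 for 3 of 8 (Psat1, Psph and Shmt2) and at D6 for 0 of 8, against 2.13%, 2.69% and 2.35% of all genes. For Psat1 the share was 32.2%, 33.2% and 32.3% at D0 and 40.5%, 51.8% and 47.5% at D4, a difference of 14.9 ± 2.61 percentage points (adjusted p = 5.58e-06). For Psph it was 24.6%, 13.7% and 22.5% at D0 and 36.4%, 47.8% and 46.7% at D4 (25.0 ± 7.58 points, adjusted p = 0.046), and for Shmt2 the D4 difference was 18.2 ± 5.36 points (adjusted p = 0.0348). Leaving out 1 library at D0 or D4 ended the Psph call in 5 cases of 6 and the Shmt2 call in 5 of 6. The replicate number as a block also ended both, with adjusted p of 0.067 for Psph and 0.0761 for Shmt2. At D6 limma called 0 members, with 2 of 8 at an unadjusted p under 0.05, Phgdh (12.3 points, adjusted p = 0.0738) and Psat1 (9.82 points, adjusted p = 0.11). Tails under 30 nt made up at most 4.55% of reads of any member at D0 on average. Limma called no difference in their share for any member, with 0 of 8 at an unadjusted p under 0.05 at each day. Of all genes 0%, 0.888% and 1.30% were called. On few reads, the mean share was 15.5% for Mthfd1 and 10.8% for Shmt1 at D6, and 13.5% for Mthfd1l at D4. The D6 difference was below 0 for 1 of 8 members, Shmt2.

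Every tail call of the members depended on weighting libraries by reads. With equal weights none of the 4841 genes was called shorter for the median tail at any day, with differences of -20.7 nt for Psat1 at D2 and -57.1 nt for Psph at D4, and none was called higher for the share of 30 to 90 nt.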

How the data were processed

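P19 cells at 4 days of differentiation were sequenced as polyadenylated RNA, 3 libraries a day, on R9 flow cells. Per the labels and the study's methods, the authors base-called reads with Guppy, aligned them with minimap2 2.20 to mouse transcripts (GENCODE vM17, mm10), measured tails in Nanopolish and separated barcodes by Deeplexicon. The deposited per-read table gives the tail length in nt, the first and last aligned transcript base, a mapping quality score as minimap2 wrote it, and the barcode confidence, a fraction made by Deeplexicon, both as deposited by the authors. The authors' second table holds their own DESeq2 fold changes and adjusted p-values per transcript for D2, D4 and D6 against D0 and was not used.

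Reads with the tag PASS on mRNA class transcripts were tallied per gene (4274320 reads). Tallies of 9309 genes with at least 30 reads were fitted with limma-voom (limma 3.58.1, R 4.3.3) over all 12 libraries, with library sizes scaled by the trimmed mean of M-values, and p-values were adjusted by the Benjamini-Hochberg method over all genes of a comparison, with calls at 0.05. Alternatives to the mapping quality, filter, scaling, depth and test were tried, and the scripts were tested on simulated data. Tails were fitted with limma, each library weighted by its reads, for 4841 genes. Replicate numbers were not used to pair libraries, as the deviations of same-numbered libraries correlated with both signs. Intervals of shares are Wilson intervals at 95%.

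All members are named, with the up to 3 called genes of each related list that had the largest difference at D6 and the 5 genes most like Phgdh and Mthfd2. Atf4, Ddit3, Fpgs, Tyms, Gldc and Acta2 were named after their values were seen. Some genes that this rule would name are not reported here. The members and lists were chosen with earlier results of these data known.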

Additional observations from a re-analysis of the deposited data

How the results depend on the processing

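For abundance at D6 against D0 the difference of each of the 8 members was negative under every alternative that could be fitted, with 6 called with mapping quality of at least 10, 7 with thinned libraries, 7 without D6 replicate 2 and 8 under the others. Of the differences called, the 1 that reversed was Shmt2 at D4, which was 0.50 on the log2 scale with mapping quality of at least 10. Numbers of genes lower or higher are those called by limma. With library totals as the only scaling the median log2 fold change of all genes was 0.13, 0.12 and 0.26 on the 3 days, and 373 genes were lower and 720 higher at D2 (569 and 437 with scaling factors), 1162 were lower at D6 and 257 were lower at D6 than at D4. With mapping quality of at least 10, 304 genes were lower and 265 higher at D2, 1041 lower and 1138 higher at D6 and 186 lower at D6 than at D4, with 1 member lower at D2, 4 at D4 and 1 between D4 and D6, and 2 members had shorter tails at D2. The mitochondrial share of one-carbon reads was then 83.5%, 77.0%, 83.3% and 80.6% at the 4 days and the Shmt2 share of Shmt reads 27.7%, 45.6%, 58.9% and 38.9%. Mthfd1 had too few reads left to be fitted under this filter. With libraries thinned to the smallest, 188 genes were lower and 146 higher at D2, 327 lower and 355 higher at D4, 646 lower and 577 higher at D6, 38 lower between D2 and D4 and 131 between D4 and D6, with 3 members lower at D4, 0 between D2 and D4 and 1 between D4 and D6, as fewer reads were used. With no filter on low counts 923 genes were higher at D2 and 160 lower between D2 and D4, with 0 members. With limma-trend 624 genes were lower and 727 higher at D4, 1111 higher at D6 and 245 lower between D4 and D6. With all quality tags 195 genes and 2 members were lower between D2 and D4, and with the transcript with most reads 356 genes were lower at D2 and 0 members between D2 and D4. The causes of these shifts were not tested.

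Tails depended more on the settings. With equal weights 0 genes and 0 members had shorter medians at each day, 0 genes and 0 members had more tails of 30 to 90 nt, and 6, 7 and 6 genes differed in tails under 30 nt at D2, D4 and D6. With the mean of log2 tail length 0 members were shorter at D6. With limits of 35 and 85 nt the members with more middle tails were 0, 1 and 1 at the 3 days. With a limit of 25 nt 1, 11 and 25 genes differed in short tails, and with 35 nt 4, 77 and 96.

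Replicate numbers were not taken to pair the libraries, with correlations of deviations from -0.14 to 0.17 within a number and from -0.20 to 0.17 between numbers, and not every library correlated best with its own number. Among D2, D4 and D6 alone the same-numbered correlations were all positive, from 0.030 to 0.17. With the replicate block 591 genes and 3 members were lower at D2, 7 members at D4 and 8 at D6, while 0 members had shorter tails at D6 and 1 had more tails of 30 to 90 nt at D4.

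Leaving out 1 library at a time, 301 to 535 genes and 2 to 4 members were lower at D2 and 340 to 504 genes higher. At D4 these numbers were 826 to 1209 genes and 6 to 7 members lower and 920 to 1195 genes higher, and at D6 1252 to 1747 genes and 7 to 8 members lower and 1465 to 1821 genes higher. Between D2 and D4 74 to 139 genes and 0 to 2 members were lower, and between D4 and D6 204 to 396 genes and 1 to 3 members. Shorter tails were called for 49 to 97 genes and 0 to 2 members at D2, 106 to 126 and 1 to 3 at D4, and 105 to 121 and 0 to 1 at D6. More tails of 30 to 90 nt were called for 83 to 117 genes and 0 to 1 members at D2, 102 to 145 and 1 to 3 at D4, and 100 to 129 genes and 0 members at D6. Short tails differed for 0 to 6, 27 to 52 and 31 to 76 genes at the 3 days.

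Among the 8 tested members, Shmt1, Mthfd1, Mthfd1l and Psph had the fewest reads at D6, with 15 to 35 each, and Aldh1l2 could not be compared.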
